A study of Mus musculus with 79 samples.

Results

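Protocadherins were taken as all genes of the count table whose GENCODE symbol began with Pcdh, which gave 70 of 55471 gene identifiers. They comprised 58 clustered genes, namely 14 of the alpha, 22 of the beta and 22 of the gamma cluster, and 12 nonclustered genes. The nonclustered genes were divided into 4 delta1 members (Pcdh1, Pcdh7, Pcdh9 and Pcdh11x), 5 delta2 members (Pcdh8, Pcdh10, Pcdh17, Pcdh18 and Pcdh19) and 3 others (Pcdh12, Pcdh15 and Pcdh20). On chromosome 18 lay 60 of the 70, which were the 3 clusters together with Pcdh1 and Pcdh12. On the GRCm38 build, which the deposited coordinates follow, Pcdh17 spans chr14:84443563-84539002 (plus strand) and Pcdh10 chr3:45378398-45435623 (plus strand). Pcdh20 (chr14:88464743-88471396), Pcdh8 (chr14:79766775-79771312) and Pcdh9 (chr14:93013410-93890679) lie on the minus strand of the same chromosome as Pcdh17. Pcdhgb8 was annotated as a polymorphic pseudogene and the other 69 as protein-coding.

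Protocadherins are the largest group of the cadherin superfamily and hold neighbouring cell membranes together by binding copies of themselves. In the clustered genes, each variable exon has a promoter of its own and is spliced, in the alpha and gamma clusters, to constant exons shared by the whole cluster, so that a neuron expresses a combination of them by which its own branches can be told from those of other cells. The C-type genes at the end of the alpha and gamma clusters are expressed in most neurons, whereas the nonclustered members are known for expression restricted to particular layers, circuits and synapses.

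The libraries were made from 1 mm tissue punches of the medial prefrontal cortex (mPFC) and the ventral hippocampus (vHipp) of 40 male CD-1 (ICR) mice, labelled wild type and 9 to 10 weeks old. The mice had either lived in groups without defeat (CTRL) or gone through chronic social defeat stress (CSDS) for 21 days in a modified form in which each mouse went back to its group after every defeat. Each then received 1 intraperitoneal injection of saline or of 10 mg/kg (R,S)-ketamine, an NMDA receptor antagonist with antidepressant action, and tissue was taken after 7 more days in a group arena. The question was how earlier stress and ketamine, alone and together, left their mark on transcription in each region.

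The groups were saline-treated CTRL, ketamine-treated CTRL, saline-treated CSDS and ketamine-treated CSDS mice, with 10 libraries each in either region except for 9 in the mPFC of ketamine-treated CSDS mice. Social rank was not used, and each group may hold mice of any rank. All mice of each run of 4 mouse numbers had the same stress condition, with 5 runs in each condition, and the labels name no cage. In the study, mice were housed in groups of 4, and stress was given to whole housing groups, 5 in each condition. The main fits took mice as independent, so their standard errors for stress leave out shared housing. In bulk tissue, fewer cells of a type and less RNA per cell cannot be told apart.

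The 79 libraries held 11726129 to 41767119 counts (median 19638060), of which the 70 protocadherins took 0.1246 to 0.2071%. Markers mostly followed the region labels. The summed level of 7 cortical marker genes was 434 to 611 CPM (counts scaled by library size) in the mPFC against 113.1 to 456 in the vHipp. That of 7 hippocampal markers was 271 to 617 against 794 to 1415. The cortical ranges overlapped, so that the highest vHipp library lay within the mPFC range. Some libraries stood apart from the rest. A score for long transcripts, the median log2 deviation from the group mean of genes with exons of at least 8000 bases minus that of genes with 1000 to 2000 bases, protocadherins left out, was lowest for mouse 1, a ketamine-treated CSDS mouse, in both regions (-0.42 in mPFC and -0.45 in vHipp, against medians of -0.01 and 0.04). In the vHipp, choroid plexus markers summed to 703 CPM in mouse 9 (CSDS, saline), where the median was 22.7, and astrocyte markers to 11925 CPM in mouse 11 (CSDS, ketamine), where the median was 4539.

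The upstream bases of 5 nonclustered genes are shown: Pcdh10, Pcdh15 and Pcdh20, whose libraries did not overlap between the regions, Pcdh8, which had the smallest p-value of the members for stress under saline in the vHipp, and Pcdh17, which is given in every comparison. Each run is the 250 bases before the annotated start, 5′ to 3′ on the gene's strand, from RefSeq on GRCm38.p6. The RefSeq start of Pcdh15 lies inside the span that the count table gives for the gene (chr10:73099342-74649737). Capitals mark GC boxes (GGGCGG or its reverse CCGCCC) and TATA boxes (TATAAA or its reverse TTTATA), both searched on both strands.
Pcdh10, chr3:45378148-45378397, plus strand: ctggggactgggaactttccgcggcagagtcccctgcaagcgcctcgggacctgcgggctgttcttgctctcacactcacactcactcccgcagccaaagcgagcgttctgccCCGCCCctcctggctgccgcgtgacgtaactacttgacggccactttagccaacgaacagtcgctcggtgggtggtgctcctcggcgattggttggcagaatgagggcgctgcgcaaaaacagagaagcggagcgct
Pcdh15, chr10:73821617-73821866, plus strand: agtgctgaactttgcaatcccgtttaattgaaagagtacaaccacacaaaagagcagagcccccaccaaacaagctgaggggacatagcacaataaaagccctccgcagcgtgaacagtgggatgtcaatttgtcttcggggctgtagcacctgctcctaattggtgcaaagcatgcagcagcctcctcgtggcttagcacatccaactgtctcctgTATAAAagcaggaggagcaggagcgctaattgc
Pcdh17, chr14:84443313-84443562, plus strand: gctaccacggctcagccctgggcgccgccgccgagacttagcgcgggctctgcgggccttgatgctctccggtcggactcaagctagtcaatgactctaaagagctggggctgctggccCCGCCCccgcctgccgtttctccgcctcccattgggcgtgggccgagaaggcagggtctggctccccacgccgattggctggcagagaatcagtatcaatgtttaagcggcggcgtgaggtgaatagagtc
Pcdh20, chr14:88471397-88471646, minus strand: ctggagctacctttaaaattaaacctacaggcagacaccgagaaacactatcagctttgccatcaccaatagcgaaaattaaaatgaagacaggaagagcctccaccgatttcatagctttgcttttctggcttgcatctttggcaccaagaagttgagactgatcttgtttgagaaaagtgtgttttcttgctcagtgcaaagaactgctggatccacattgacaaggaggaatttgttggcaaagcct
Pcdh8, chr14:79771313-79771562, minus strand: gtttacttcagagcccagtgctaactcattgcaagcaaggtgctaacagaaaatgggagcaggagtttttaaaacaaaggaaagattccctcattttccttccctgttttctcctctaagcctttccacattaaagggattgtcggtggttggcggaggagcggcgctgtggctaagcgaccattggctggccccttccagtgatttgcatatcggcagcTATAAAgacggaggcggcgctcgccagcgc
Pcdh10 and Pcdh17 each held 1 GC box and no TATA box, Pcdh15 and Pcdh8 each held 1 TATA box and no GC box, and Pcdh20 held neither. The GC content was 63.2% for Pcdh10 and 64.8% for Pcdh17, against 50.4% for Pcdh15, 51.2% for Pcdh8 and 42.4% for Pcdh20, with a median of 52.4% over the 32851 promoters of the table. Among 10 windows of 9 nonclustered genes in that table, 4 held a GC box and 2 a TATA box, where 32.7% and 12.4% of all promoters did. The cAMP response element TGACGTCA was in none of the 10 (1.55% of all promoters) and an E-box (CANNTG) in 2 (66.2%). These matches describe the letters only.

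Levels were compared between genes as CPM per kilobase of exon that a gene shares with no other gene on its strand. This share was 8.6 to 61.1% of the exon bases in the alpha cluster and 33.2 to 68.5% in the gamma cluster, where the constant exons are common to all members, but 90.3 to 100.0% in the beta cluster, whose genes have no constant exons. Of 786 genes with no exon base of their own, 734 had no count in any library and the highest count of the others was 198. The levels per kilobase take reads in shared exons as uncounted, while the counting program and its strand setting are not given in the sources used here. Pcdha4, with 8.6% of its bases its own, averaged 0.35 counts per library and passed the filter on low counts only in the vHipp and where both regions were fitted together.

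**Figure D1:**
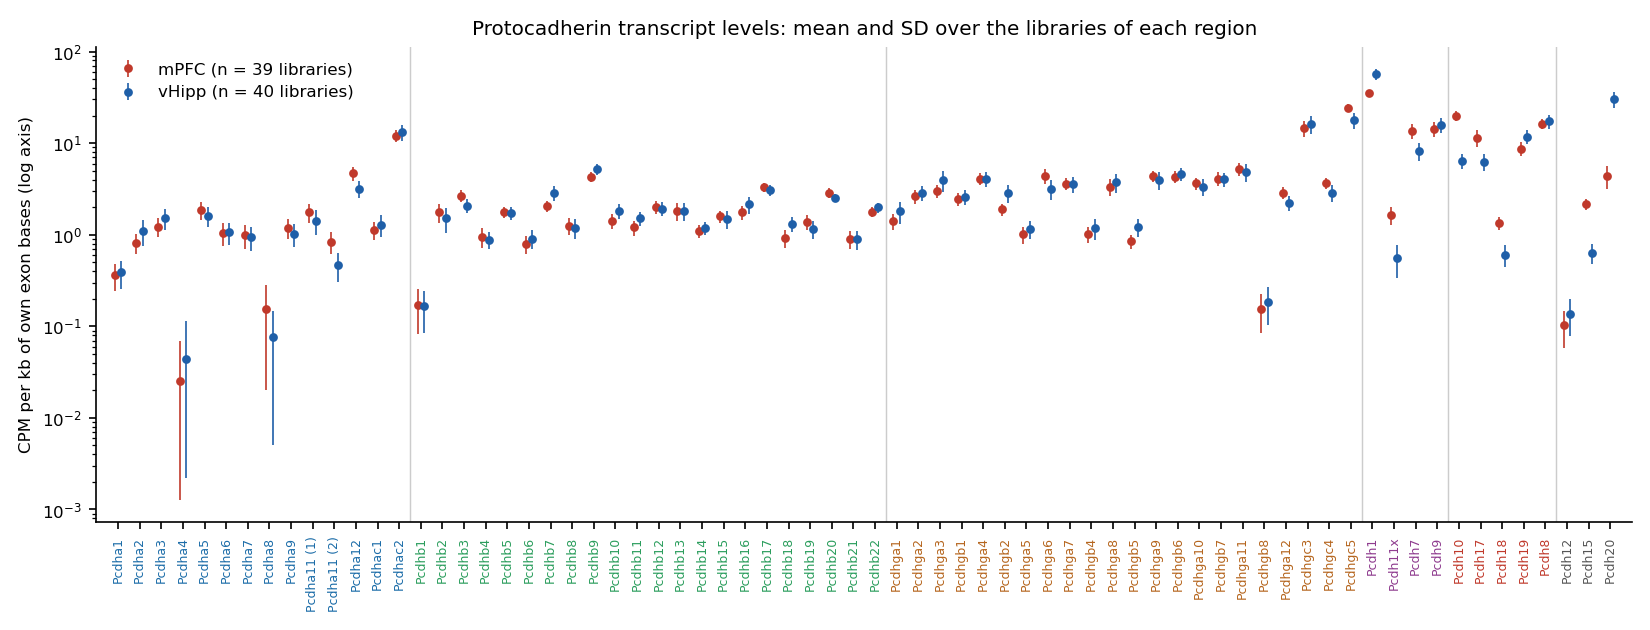
Mean level of each protocadherin in CPM per kilobase of its own exon bases (log axis), with the SD over 39 mPFC (red) and 40 vHipp (blue) libraries. Genes stand in chromosomal order within the alpha, beta and gamma clusters, followed by the delta1, delta2 and other nonclustered members, and lower bars of Pcdha4 are cut short where mean minus SD falls to 0 or below. Pcdh1, the C-type genes Pcdhac2, Pcdhgc3 and Pcdhgc5 and most delta members sit above the other clustered genes, and Pcdh20 has the widest gap between the regions.

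A few genes carried most of the protocadherin signal. Pcdh1, a delta1 member, had the highest level per kilobase in both regions, with 35.3 CPM per kb in the mPFC and 57.1 in the vHipp, and made up 16.8% and 27.7% of all protocadherin counts. In the mPFC it was followed by Pcdhgc5 (24.5), Pcdh10 (19.9), Pcdh8 (16.2), Pcdhgc3 (14.6), Pcdh9 (14.3), Pcdh7 (13.6), Pcdhac2 (12.1) and Pcdh17 (11.5 CPM per kb). From Pcdh8 (SD 2.03 over libraries) to Pcdh17 (SD 2.29), neighbours in this order differed by less than 1 SD. In the vHipp, Pcdh20 came next to Pcdh1 with 30.2 CPM per kb, followed by Pcdhgc5 (17.8), Pcdh8 (17.4), Pcdhgc3 (16.3), Pcdh9 (15.9), Pcdhac2 (13.2), Pcdh19 (11.8), Pcdh7 (8.22), Pcdh10 (6.46) and Pcdh17 (6.28). From Pcdhgc5 (SD 3.44) to Pcdh19 (SD 2.07), neighbours again differed by less than 1 SD.

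In the alpha and gamma clusters, the C-type genes Pcdhac2, Pcdhgc3 and Pcdhgc5 stood above the rest, while Pcdhac1 and Pcdhgc4 did not. The 5 C-type genes together took 38.4% of the clustered counts in the mPFC and 35.5% in the vHipp. In the alpha cluster, Pcdhac2, which serotonergic axons need in order to space themselves, led with 12.1 and 13.2 CPM per kb, before Pcdha12 (4.68 and 3.197) and Pcdha5 (1.88 and 1.62), while the other C-type gene Pcdhac1 had 1.13 and 1.29. Leaving out the C-type genes and Pcdha4, the median alpha gene had 1.05 CPM per kb in the mPFC and 1.06 in the vHipp.

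In the gamma cluster, Pcdhgc5 and Pcdhgc3 led in both regions, followed by Pcdhga11 (5.26 and 4.82 CPM per kb), and the median gamma gene other than the C-type had 3.01 in the mPFC and 3.198 in the vHipp. Pcdhgc4, which inhibitory interneurons need to survive, had 3.65 and 2.89. The 22 beta genes ranged from 0.170 CPM per kb for Pcdhb1 to 4.32 for Pcdhb9 in the mPFC and from 0.165 to 5.19 for the same genes in the vHipp, with Pcdhb17 (3.33 and 3.07) second in both. Next came Pcdhb20 (2.88) in the mPFC and Pcdhb7 (2.85) in the vHipp. Pcdh12, known from endothelial cells, was among the lowest with 0.104 and 0.138 CPM per kb. The plot of levels per kilobase shows these ranks.

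The comparison of the regions asks how far the protocadherin repertoire of the mPFC differs from that of the vHipp. Averaged over the 4 groups, 44 of 70 protocadherins (62.9%) differed between mPFC and vHipp at an adjusted p under 0.05, where 48.9% of all 31534 genes tested did (quasi-likelihood test of edgeR, p-values adjusted by Benjamini-Hochberg). That share covers every gene that passed the filter on low counts (more than 10 in total). Of the 70 protocadherins, 64 had a mean of at least 1 CPM in each region. Shares among genes of similar level were not computed here or for comparisons within a region. Of the 44, 22 were higher and 22 lower in the mPFC, and the median log2 difference over the 70 was 0.00, as over all genes. The alpha cluster had 6 higher and 3 lower of 14, the beta cluster 5 and 8 of 22, and the gamma cluster 5 and 7 of 22. Of the 12 nonclustered members 10 differed, and only Pcdh8 and Pcdh9 did not pass. With the mouse as a replicate block, 51 (72.9%) passed, where 49.0% of all genes did, namely the same 44 together with Pcdh9 and 6 beta and gamma genes. In saline-treated CTRL mice alone, 28 of 70 (40.0%) passed, where 29.0% of all genes did, and Pcdh17 had a log2 fold of 0.84 (SE 0.13).

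**Figure D2:**
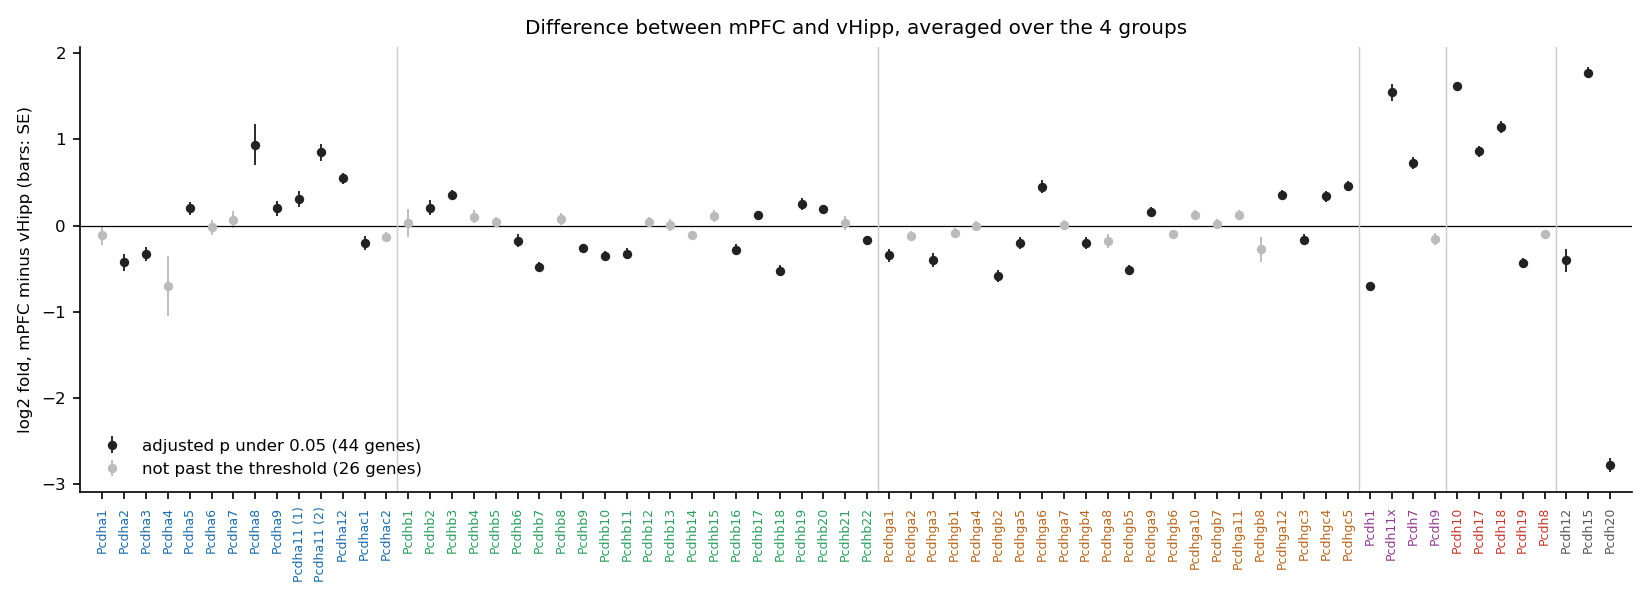
Log2 fold of each protocadherin in the mPFC against the vHipp, averaged over the 4 groups, with the standard error as bars. Black points passed an adjusted p of 0.05 (44 genes) and grey points did not (26). The largest differences are those of nonclustered members, from -2.77 for Pcdh20 to 1.78 for Pcdh15, while clustered genes lie between -0.70 and 0.94.

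Pcdh20 had the largest difference of the 70 and was higher in the vHipp. It ranged from 11.5 to 40.1 CPM (median 22.2) over the mPFC libraries and from 107.7 to 220 CPM (median 171) over the vHipp libraries. The libraries of the regions did not overlap, which held for 3 of the 70 protocadherins (Pcdh20, Pcdh10 and Pcdh15) and for 2.92% of all genes. The log2 fold, mPFC minus vHipp, was -2.77 (SE 0.08, adjusted p = 6.9e-47), a 6.84-fold lower level in the mPFC, and its sign was the same in 39 of 39 mice with both regions. Pcdh1 was 1.62-fold lower in the mPFC, with 255.97 to 362 CPM against 335 to 632 in the vHipp (log2 fold -0.69, SE 0.04). Pcdh19, the X-linked delta2 gene whose loss causes an epilepsy in girls, was also lower (57.3 to 127.3 CPM against 69.4 to 159, log2 fold -0.44, SE 0.06). Pcdh12 was lower at under 2 CPM in every library (log2 fold -0.40, SE 0.14).

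The other delta2 genes that passed were higher in the mPFC. Pcdh10, which draws the actin-remodelling WAVE complex to cell contacts, had 209 to 374 CPM (median 322) in the mPFC and 63.9 to 155 (median 103.9) in the vHipp. All its mPFC libraries lay above all its vHipp libraries, with a log2 fold of 1.62 (SE 0.05, adjusted p = 4.4e-44). Pcdh17, which acts on axon growth and presynaptic assembly in corticostriatal paths, had 71.3 to 207 CPM (median 154) against 40.5 to 125.2 (median 80.98). Its ranges overlapped, but it was higher in the mPFC in 39 of 39 mice, with a log2 fold of 0.86 (SE 0.07, adjusted p = 4.4e-20). Pcdh18 was 2.21-fold higher at low levels (4.33 to 9.77 CPM against 1.62 to 6.85, log2 fold 1.14, SE 0.07). Pcdh8, an activity-induced member that takes part in the internalisation of N-cadherin, had medians of 72.4 and 76.6 CPM and did not pass (log2 fold -0.09, 95% interval -0.19 to 0.00, adjusted p = 0.0996).

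Among the delta1 genes, Pcdh11x was 2.92-fold higher in the mPFC (12.4 to 33.9 CPM against 2.48 to 17.7, log2 fold 1.54, SE 0.10). Pcdh7 was 1.65-fold higher (82.4 to 188 CPM against 41.8 to 130, log2 fold 0.73, SE 0.07). Pcdh9 stood just outside the threshold with medians of 96.7 and 113.7 CPM (log2 fold -0.15, SE 0.07, adjusted p = 0.0505). Pcdh15, known for the tip links of inner ear hair cells, was 3.42-fold higher in the mPFC, with 36.0 to 71.4 CPM against 8.12 to 25.6 (log2 fold 1.78, SE 0.06).

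No clustered gene differed by as much as Pcdh20, Pcdh15, Pcdh10, Pcdh11x or Pcdh18, though some differed by more than Pcdh19 or Pcdh12. Among the clustered genes that passed, the 3 lower in the mPFC by most were Pcdhgb2 (log2 fold -0.59, SE 0.07), Pcdhb18 (-0.52, SE 0.06) and Pcdhgb5 (-0.51, SE 0.06). The highest in the mPFC were Pcdha8 (0.94, SE 0.24, at a mean of 0.38 CPM), 1 of the 2 identifiers named Pcdha11 (ENSMUSG00000102206, 0.85, SE 0.10) and Pcdha12 (0.55, SE 0.06). The other identifier of that name, ENSMUSG00000007440, had 0.31 (SE 0.09). C-type genes went both ways: Pcdhgc5 (0.46, SE 0.05) and Pcdhgc4 (0.34, SE 0.06) were higher in the mPFC, Pcdhgc3 (-0.16, SE 0.06) and Pcdhac1 (-0.20, SE 0.08) were lower, and Pcdhac2 (-0.13, SE 0.06, adjusted p = 0.064) did not pass.

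Genes that act on the clusters or with their products were compared in the same fit. Of 20 measured regulators of the clusters 9 passed, where 48.9% of all genes did, and 3 of the 9 were higher in the mPFC, namely the DNA methyltransferase gene Dnmt3a (log2 fold 0.29, SE 0.03), the cohesin gene Rad21 (0.18, SE 0.03) and Wiz (0.06, SE 0.02). The other 6 were lower: the cohesin release factor Wapl (-0.40, SE 0.04), the cohesin loader genes Mau2 (-0.25, SE 0.02) and Nipbl (-0.13, SE 0.04), Pds5b (-0.21, SE 0.04), Stag1 (-0.17, SE 0.03) and Ctcf (-0.08, SE 0.02), whose protein binds the promoters of most variable exons. Of 26 cytoplasmic and surface partners 20 passed, 8 higher and 12 lower. Ptk2 (focal adhesion kinase), held in check by the clustered proteins, was higher in the mPFC (0.51, SE 0.02), and its relative Ptk2b was lower (-1.30, SE 0.04). In the WAVE complex, Cyfip2 was higher (0.29, SE 0.04) while Cyfip1 (-1.13, SE 0.03), Wasf1 (-0.65, SE 0.03), Abi1 (-0.54, SE 0.03) and Nckap1 (-0.39, SE 0.06) were lower. The other partners higher in the mPFC were Fat1 (0.68, SE 0.07), Marcks (0.59, SE 0.06), the sheddase gene Adam10 (0.22, SE 0.04), Abi2 (0.14, SE 0.04), Nlgn2 (0.12, SE 0.02) and Brk1 (0.07, SE 0.03). Among the other partners lower were the N-cadherin gene Cdh2 (-0.29, SE 0.04), the beta-catenin gene Ctnnb1 (-0.28, SE 0.02), Fyn (-0.25, SE 0.02), Wasf3 (-0.19, SE 0.03), Rac1 (-0.11, SE 0.02) and Mapk14 (-0.10, SE 0.02).

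**Figure D3:**
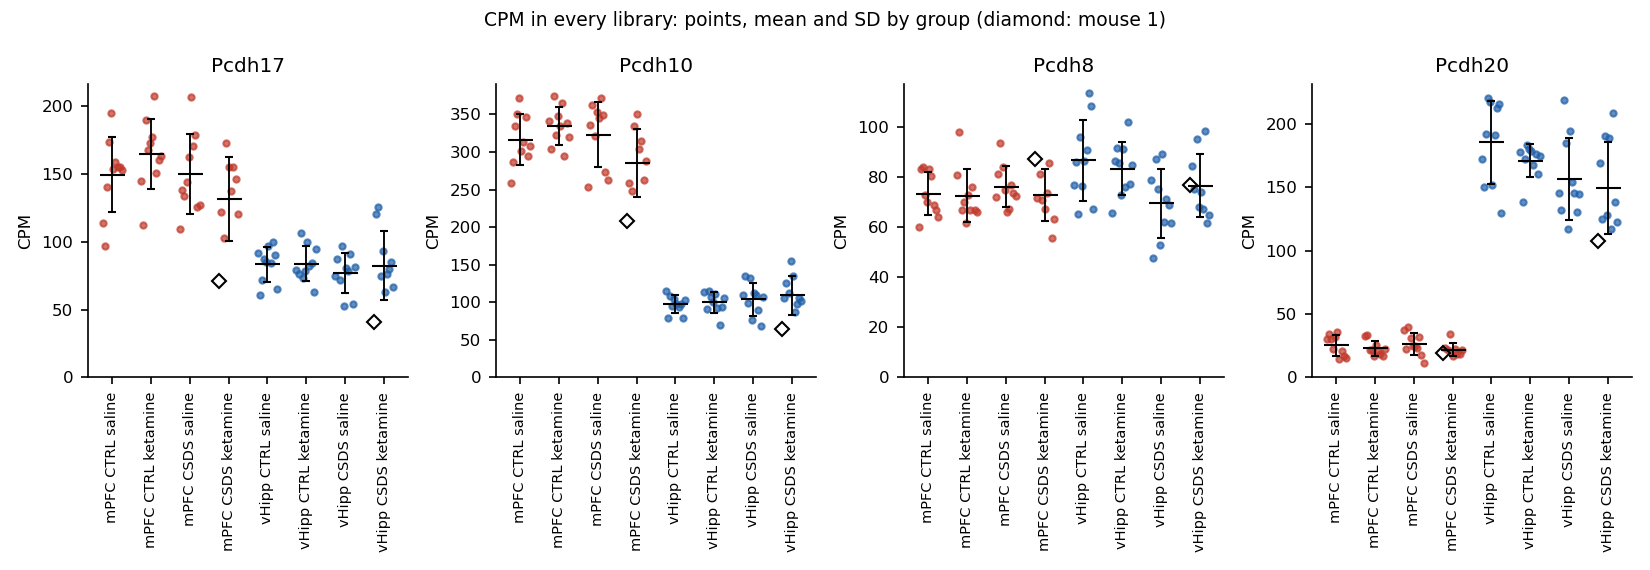
CPM of Pcdh17, Pcdh10, Pcdh8 and Pcdh20 in every library of the 8 groups, mPFC in red and vHipp in blue, with the mean and SD of each group in black and mouse 1 as an open diamond. Regions separate Pcdh10 and Pcdh20 without overlap, whereas the 4 groups of a region overlap for every gene. Mouse 1 is the lowest library for Pcdh17 and Pcdh10 in both regions.

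Within a region, no protocadherin and no other gene passed an adjusted p of 0.05 in any of 14 comparisons of stress, ketamine and their interaction (edgeR, which called 0% of the 28993 genes tested in the mPFC and 0% of those tested in the vHipp). DESeq2 called 0 protocadherins in all 14 as well, and 14 other genes for stress averaged over treatments in the vHipp. The values below are therefore descriptions, with counts at an unadjusted p under 0.05 beside the same share of all genes.

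The comparison that held the most protocadherins at that level in the mPFC was CSDS against CTRL among ketamine-treated mice. Pcdh17 had 111.98, 165 and 207 CPM as lowest, median and highest in ketamine-treated CTRL mice and 71.3, 137.1 and 173 in ketamine-treated CSDS mice. Under saline it had 96.7, 154 and 195 in CTRL and 109.5, 140.8 and 206 in CSDS mice. The groups overlapped throughout, and the lowest library was mouse 1. The log2 difference, CSDS minus CTRL, was -0.32 under ketamine (SE 0.12, 95% interval -0.56 to -0.08, unadjusted p = 0.014, adjusted p = 0.83) and 0.00 under saline (SE 0.12, interval -0.24 to 0.23). The interaction was -0.32 (SE 0.17, adjusted p = 0.90). Without mouse 1, which was chosen after seeing the data, the difference under ketamine was -0.24 (SE 0.11).

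Pcdh10 had 295, 337 and 374 CPM in ketamine-treated CTRL and 209, 288 and 351 in ketamine-treated CSDS mice, a difference of -0.22 (SE 0.08, unadjusted p = 0.0068, adjusted p = 0.83). Pcdhb19 had 8.34, 11.6 and 13.8 CPM against 5.52, 9.17 and 11.5, a difference of -0.33 (SE 0.11, unadjusted p = 0.0045). In both genes the ranges overlapped and the ketamine-treated CSDS group held the lowest library. Pcdha5 differed by -0.39 (SE 0.14), Pcdhb2 by -0.41 (SE 0.15), Pcdhac1 by -0.39 (SE 0.15) and Pcdh1 by -0.12 (SE 0.05), none past the adjusted threshold.

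In this comparison 10 of 69 protocadherins had an unadjusted p under 0.05, all lower in CSDS mice, where 5.80% of all genes had one, 2.42% higher and 3.38% lower. The other 3 were Pcdhb16, Pcdh15 and Pcdhb18. The value lay below 0 for 58 of the 69, against 49.5% of all genes, with a median of -0.09 against 0.00 over all genes. All 13 alpha genes tested lay below 0 (median -0.20), as did 18 of 22 beta genes (median -0.09), 16 of 22 gamma genes (median -0.05), 4 of 4 delta1, 4 of 5 delta2 and 3 of 3 other members. These genes were measured in the same libraries and are not independent of each other. Their transcripts are also long, with a median exon length of 5333.5 bases against 1229 over all genes and 3499 over protein-coding genes. The ketamine-treated CSDS group holds mouse 1, which had the lowest long-transcript score. The part of transcript length in these counts was not tested.

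Mouse 1 was the lowest mPFC library for 31 of the 70 protocadherins, and its protocadherins summed to 1283 CPM where the median mPFC library had 1884. Without mouse 1, 8 protocadherins had an unadjusted p under 0.05 (4.24% of all genes) and the median was -0.05. With a run of 4 mice left out the count lay between 5 (without mice 1 to 4, 3.75% of all genes) and 17 (without mice 9 to 12, 10.2% of all genes), so that the share of all genes moved as well. Oligodendrocyte markers also varied, with a median sum of 2355 CPM in ketamine-treated CSDS mice (567 to 6204) against 1288 to 1622 in the other mPFC groups (633 to 6369). Their part in the result was not tested.

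With the long-transcript score as a covariate, chosen after seeing the data, 0.473% of all genes passed the adjusted threshold in this comparison, among them 3 of 69 protocadherins. These were Pcdh17 (log2 difference -0.35, SE 0.07, adjusted p = 0.013), Pcdh10 (-0.23, SE 0.05, adjusted p = 0.015) and Pcdhb19 (-0.36, SE 0.08, adjusted p = 0.022), and 16 had an unadjusted p under 0.05 (9.55% of all genes). The score was centred within each group, so that it narrowed the spread among mice and left the differences between groups near their values without it. The fit therefore cannot take out what low-score libraries such as mouse 1 add to the mean of a group, and its p-values can come out too small. No conclusion on stress is drawn from these calls, nor from the counts that other comparisons gave with this covariate. In the same fit of the interaction, 0.162% of all genes passed and 0 protocadherins did. Over all alternatives tried, the adjusted p of Pcdh17 in this comparison lay between 0.013 and 1.00.

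**Figure D4:**
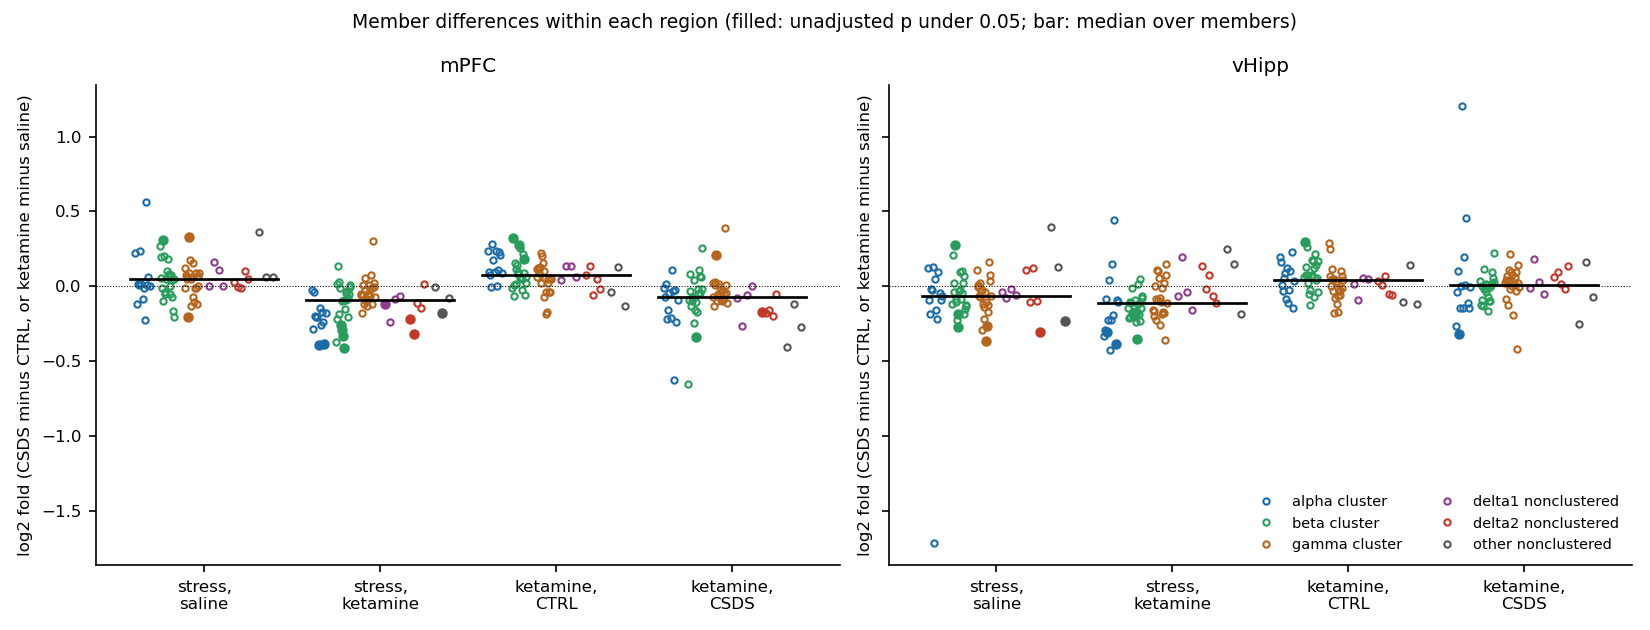
Log2 differences of the protocadherins within the mPFC (left) and the vHipp (right) for CSDS against CTRL under saline or ketamine and for ketamine against saline in CTRL or CSDS mice, coloured by subset. Filled points had an unadjusted p under 0.05 (10 in the mPFC for stress under ketamine), bars are medians over the members, and no point passed the adjusted threshold. The median lies lowest in the mPFC and vHipp for stress under ketamine (-0.09 and -0.11), while the vHipp medians for ketamine against saline are 0.04 in CTRL and 0.01 in CSDS mice.

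The other mPFC comparisons held fewer with all libraries in the fit, but their counts moved with single runs of mice. For stress under saline, 3 of 69 had an unadjusted p under 0.05 (2.94% of all genes, 1.38% higher and 1.56% lower), with Pcdhga5 (0.33, SE 0.14) and Pcdhb13 (0.31, SE 0.14) higher in CSDS mice and Pcdhga3 (-0.20, SE 0.10) lower, and 23 of 69 lay below 0 (51.0% of all genes). With a run left out, 1 (without mice 9 to 12, 3.29% of all genes) to 8 (without mice 17 to 20, 4.29%) had one. For ketamine in CTRL mice, 3 were higher under ketamine (3.64% of all genes passed that level, 1.74% higher and 1.90% lower), namely Pcdhb10 (0.32, SE 0.11), Pcdhb19 (0.27, SE 0.11) and Pcdhb5 (0.19, SE 0.09), and Pcdh17 differed by 0.14 (SE 0.12). Here 15 of 69 lay below 0 (51.5% of all genes), with a median of 0.08, and the ketamine-treated CTRL mice are also the group against which stress under ketamine was measured. The count lay between 2 and 6 with a run left out, the highest without mice 25 to 28 (2.65% of all genes). For ketamine in CSDS mice, Pcdhb2 (-0.34, SE 0.15) and Pcdh10 (-0.17, SE 0.08) were lower and Pcdhga3 (0.21, SE 0.10) higher, where 4.32% of all genes passed, 1.81% higher and 2.50% lower. Pcdh17 then differed by -0.18 (SE 0.12), and 53 of 69 lay below 0 (50.1% of all genes). The count of 3 lay between 2 and 8 with a run left out, the highest without mice 17 to 20 (5.00% of all genes). It was 8 with the run as a covariate (4.96% of all genes), 11 with the long-transcript score as one (6.84%) and 1 with only both groups compared in the fit (3.23%). These comparisons share groups with each other.

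The stress by ketamine interaction in the mPFC, the difference between the stress effects under ketamine and under saline, was below 0 for 60 of 69 protocadherins (48.9% of all genes), with a median of -0.14. An unadjusted p under 0.05 was held by 7, all below 0 (5.31% of all genes, 2.43% above and 2.88% below 0): Pcdhb2 (-0.60, SE 0.20), Pcdhb19 (-0.43, SE 0.16), Pcdhb10 (-0.42, SE 0.16), Pcdh10 (-0.25, SE 0.11), Pcdhac1, Pcdh15 and Pcdh11x. With a run of 4 mice left out, 3 (without mice 21 to 24, 4.77% of all genes) to 12 (without mice 17 to 20, 6.58%) had one, and with the long-transcript score as a covariate 16 did (8.63%). Averaged over treatments, stress gave 2 (3.52% of all genes, 1.55% higher and 1.98% lower), Pcdha5 (-0.24, SE 0.10) and Pcdhga3 (-0.16, SE 0.07), with Pcdhga5 at 0.19 (SE 0.10) and Pcdh17 at -0.16 (SE 0.09), and 45 of 69 lay below 0 (50.2% of all genes). With a run left out, 2 to 13 had an unadjusted p under 0.05, the highest without mice 9 to 12 (6.08% of all genes), and with the long-transcript score as a covariate 12 did (4.95%). Averaged over stress groups, ketamine gave 1 (3.07% of all genes, 1.31% higher and 1.76% lower), Pcdhga3 (0.17, SE 0.07), before Pcdhb5 (0.13, SE 0.06) and Pcdh20 (-0.20, SE 0.12), with Pcdh17 at -0.02 (SE 0.09) and 33 of 69 below 0 (50.7% of all genes), and the count lay between 0 (without mice 29 to 32, 2.68% of all genes) and 3 (without mice 17 to 20, 2.98%, or 21 to 24, 3.78%).

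In the vHipp, Pcdh8 had 65.1, 86.1 and 113.4 CPM as lowest, median and highest in saline-treated CTRL mice and 47.4, 69.9 and 89.2 in saline-treated CSDS mice. Its log2 difference for stress under saline was -0.30 (SE 0.10, unadjusted p = 0.0057, adjusted p = 0.82), and the ranges overlapped. Pcdh20 had 130, 192 and 220 CPM against 117.3, 145.4 and 219, a difference of -0.23 (SE 0.11). Pcdhgb4 (-0.37, SE 0.15) and Pcdhb18 (-0.27, SE 0.12) were the other members with the smallest p.

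Of 70 protocadherins, 7 had an unadjusted p under 0.05 in that comparison, 6 of them lower (5.57% of all genes, 2.50% lower), and 49 lay below 0 (52.1% of all genes). In the vHipp, mouse 9 was the lowest library for 31 of 70 protocadherins and mouse 1 for 20. Without the libraries of mice 9 and 11, chosen after seeing the data, 2 rather than 6 were lower (2.76% of all genes), and the median moved from -0.06 to 0.00. With a run of 4 mice left out, the lower members numbered 1 (without mice 17 to 20, 2.30% of all genes) to 10 (without mice 21 to 24, 3.44%), and with the long-transcript score as a covariate 11 (3.27%). For stress under ketamine, 53 of 70 lay below 0 (48.6% of all genes) and 5 were lower at an unadjusted p under 0.05 (5.42% of all genes, 2.61% lower), with Pcdhb20 (-0.17, SE 0.07), Pcdhb17 (-0.20, SE 0.08) and Pcdhb21 (-0.35, SE 0.15) having the smallest p, and without mouse 1 there was 1 (2.78% of all genes). Without mice 9 and 11 there were 9 (2.28% of all genes). With a run left out they numbered 2 to 13, the highest without mice 9 to 12 (2.34% of all genes), and with the long-transcript score as a covariate they were 13 (7.05% of all genes in either direction). Pcdh17 differed by -0.10 (SE 0.13) under saline and by -0.02 (SE 0.13) under ketamine.

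Averaged over treatments, stress in the vHipp gave 11 of 70 protocadherins with an unadjusted p under 0.05, all lower in CSDS mice, where 9.71% of all genes had one and 4.40% were lower. The value was below 0 for 58 of 70 (50.8% of all genes), with a median of -0.09. Pcdhb17 (-0.19, SE 0.06, adjusted p = 0.34), Pcdh8 (-0.21, SE 0.07, adjusted p = 0.37) and Pcdh20 (-0.21, SE 0.08, adjusted p = 0.40) had the smallest p. Pcdh17 differed by -0.06 (SE 0.09). Without mouse 1 there were 9 lower (4.46% of all genes) and 2 higher (5.58%), and without mice 9 and 11 there were again 11 lower (4.03%). With a run left out, 5 (without mice 17 to 20, 3.98% of all genes) to 15 (without mice 21 to 24, 6.63%) were lower.

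The ketamine comparisons held fewer members in the vHipp. In CTRL mice, Pcdhb10 was higher under ketamine (0.30, SE 0.11, adjusted p = 1.0), before Pcdhb13 (0.26, SE 0.14) and Pcdhga11 (0.25, SE 0.13), which made 1 of 70 against 2.88% of all genes. In CSDS mice, Pcdha12 was lower (-0.32, SE 0.14), before Pcdhb8 (0.22, SE 0.14) and Pcdhgb8 (-0.42, SE 0.28), again 1 of 70 (2.90% of all genes). The interaction gave 2 (2.84% of all genes), Pcdhb10 (-0.42, SE 0.15) and Pcdhb13 (-0.39, SE 0.19), followed by Pcdhga5 (0.40, SE 0.20). The average over stress groups gave 0 (3.39% of all genes), where Pcdhb8 (0.19, SE 0.10), Pcdha12 (-0.17, SE 0.10) and Pcdhgb1 (-0.16, SE 0.09) had the smallest p. With a run left out, these counts lay between 0 and 3 in CTRL mice (2.64 to 3.06% of all genes), 0 and 2 in CSDS mice (2.72 to 3.96%), 1 and 3 for the interaction (2.58 to 3.24%) and 0 and 3 for the average (3.00 to 4.17%). With the long-transcript score as a covariate they were 5 in CTRL mice (3.15% of all genes), 1 in CSDS mice (3.14%), 4 for the interaction (3.08%) and 2 for the average (3.57%). Pcdh17 stood at 0.01 (SE 0.13) for ketamine in CTRL mice, 0.09 (SE 0.13) in CSDS mice, 0.09 (SE 0.18) for the interaction and 0.05 (SE 0.09) for the average. Of 70 members, 25 lay below 0 in CTRL mice (50.6% of all genes), 33 in CSDS mice (48.8%), 39 for the interaction (48.8%) and 24 for the average (49.9%).

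Whether the stress effect differed between the regions was tested in 1 model over all 79 libraries, which took the regions of a mouse as separate samples, and no gene passed. With the mouse as a replicate block, 0 protocadherins passed as well. Under ketamine, Pcdh10 had a difference of effects, mPFC minus vHipp, of -0.35 (SE 0.14), Pcdhb12 of 0.34 (SE 0.15), Pcdh15 of -0.32 (SE 0.17) and Pcdh17 of -0.30 (SE 0.19), with 2 of 70 at an unadjusted p under 0.05 against 4.10% of all genes and 34 of 70 below 0 against 50.8%. Under saline the difference was above 0 for 57 of 70 protocadherins, with a median of 0.11 (0.02 over all genes), and 13 were below 0, where 45.4% of all genes were. Pcdhga5 had 0.64 (SE 0.20), Pcdh8 0.37 (SE 0.13), Pcdhgb6 0.28 (SE 0.15) and Pcdh17 0.12 (SE 0.19), again with 2 of 70 (5.50% of all genes). With a run left out, these counts lay between 1 and 6 under ketamine (3.63 to 5.18% of all genes) and between 2 and 4 under saline (4.45 to 6.99%). With the mouse as a replicate block they were 2 under ketamine (3.48% of all genes) and 7 under saline (6.61%), and with the long-transcript score as a covariate 4 (4.69%) and 7 (7.00%).

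None of the regulators or partners passed in a comparison within a region. For stress under ketamine in the mPFC, 15 of 20 regulators and 19 of 26 partners lay below 0, with medians of -0.04 and -0.03, where 49.5% of all genes lay below 0 with a median of 0.00. Among the regulators with the smallest p-values were Pds5b (-0.17, SE 0.08) and Ehmt1 (-0.29, SE 0.17), and the partners with the smallest were Nckap1 (-0.20, SE 0.09), Cdh2 (-0.14, SE 0.06) and Abi2 (-0.13, SE 0.07).

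**Figure D5:**
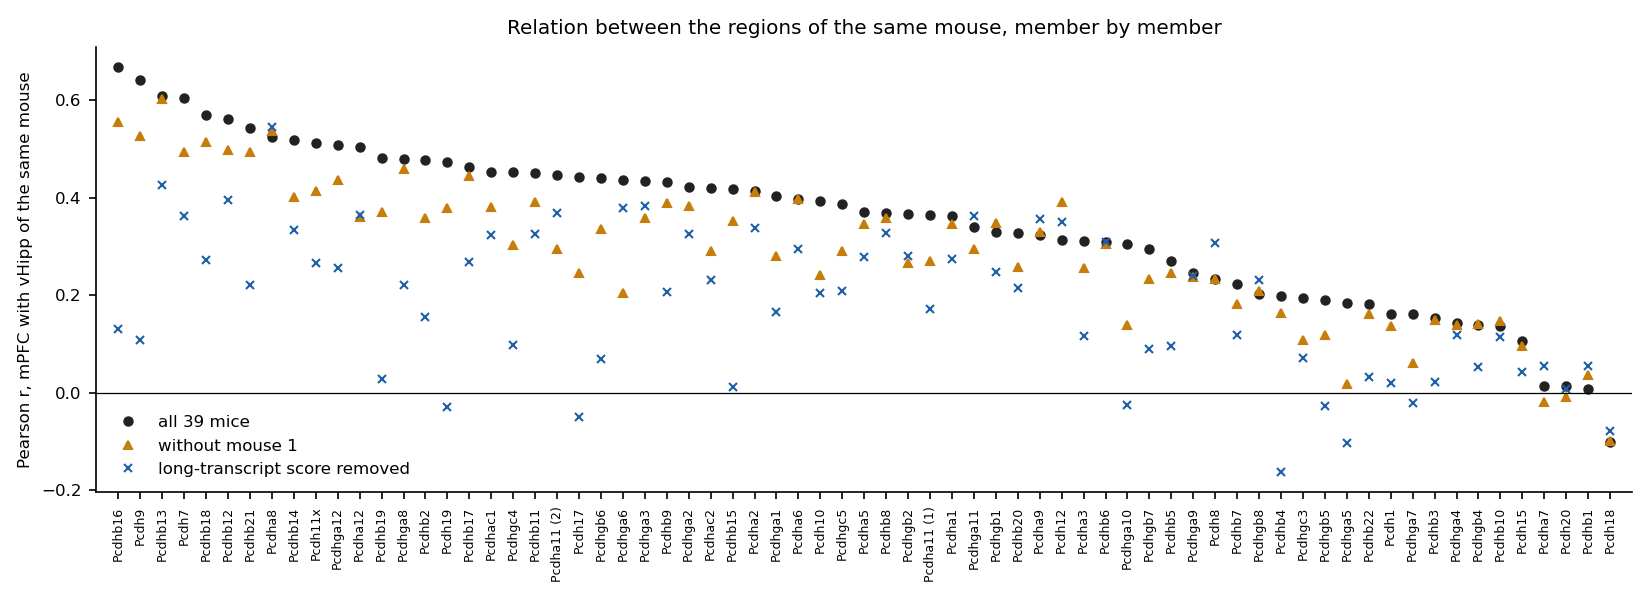
Pearson's r between the mPFC and the vHipp of the same mouse for each of 69 protocadherins, on log2 CPM minus the group mean, for 39 mice (black circles), without mouse 1 (orange triangles) and with the long-transcript score removed (blue crosses). The circles run from 0.67 for Pcdhb16 to -0.10 for Pcdh18, and most crosses lie below them.

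The level of a protocadherin could also go with the mouse. Over 39 mice with both regions, values minus their group means were correlated between mPFC and vHipp, with permutation p-values adjusted over 27874 genes. Of 69 protocadherins 24 (34.8%) passed, all with a positive r, where 18.8% of all genes passed, and the median r was 0.37 against 0.17 over all genes. Among genes with a mean of at least 1 CPM in both regions, 30 of 64 protocadherins (46.9%) passed against 35.7% of all genes, with a median r of 0.39 against 0.30. The 24 were 11 of 22 beta, 5 of 22 gamma, 4 of 13 alpha and 4 of 12 nonclustered genes.

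Pcdhb16 had the highest r, 0.67 (Spearman's rho 0.61, adjusted permutation p = 0.00077), which was 0.54 without the 2 mice farthest from the median in the mPFC. Pcdh9 had 0.64 (rho 0.51, 0.51 without such mice), Pcdhb13 0.61 (rho 0.61, 0.55), Pcdh7 0.61 (rho 0.54, 0.44) and Pcdhb18 0.57 (rho 0.63, 0.52). Mouse 1 was among the 2 mice left out for all 5. Pcdh17 had 0.44 (rho 0.35, adjusted permutation p = 0.069) and 0.17 without its 2 farthest mice. Leaving out the farthest mice narrows the range of values, which by itself can lower r. Whether the relation of Pcdh17 rests on those mice was not tested. Pcdh20 had 0.01 and Pcdh18 -0.10.

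These relations moved with the long-transcript score and with single mice. Without mice 9 and 11, 31 of 69 protocadherins passed (44.9%, against 17.9% of all genes), and with the mean of each run of 4 mice removed 29 did (against 17.3% of all genes). Without mouse 1, 8 of 69 protocadherins passed (11.6%, against 15.4% of all genes), namely Pcdhb16, Pcdh9, Pcdhb13, Pcdh7, Pcdhb18, Pcdhb12, Pcdhb21 and Pcdha8. With the long-transcript score removed from each region's values, 1 passed (Pcdha8, r 0.55), against 9.39% of all genes, and r was lower than before for 60 of 69. Pcdhb16 then had 0.13, Pcdh9 0.11, Pcdhb13 0.43, Pcdh7 0.36, Pcdhb18 0.27 and Pcdh17 -0.05. These settings, other than the removal of the run, were chosen after seeing the data.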

How the data were processed

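RNA was extracted from tissue punches with the miRNeasy Micro kit and 100 ng was made into libraries with Illumina Stranded mRNA Prep, per the labels. The authors deposited raw read counts per gene on GRCm38 coordinates. The submitters' processing notes name CASAVA and bcl2fastq 2.20.0.422, and the counting program is not given in the sources used here. Of 55471 identifiers, 55230 had a GENCODE symbol. Library totals of 11726129 to 41767119 counts limit the precision of low genes, and intervals cover the model's error only.

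Genes with more than 10 counts in total and detected in more than 3 libraries were tested with edgeR 4.0.16 (quasi-likelihood, TMM, Benjamini-Hochberg over all genes), with the 4 groups of a region in 1 fit, or all 8 groups where regions were compared. For the relation between regions, log2 CPM (prior count 2) minus the group mean was correlated over 39 mice with 100000 permutations within groups, two-sided (Python 3.11.15, numpy 2.4.6, numba 0.67.0). The steps were tested on simulated data.

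Alternatives were DESeq2 1.42.0, RLE scaling, no filter, edgeR's own filter, only the groups compared, limma 3.58.1 in which mice of the same run of 4 numbers shared a random effect (correlation 0.0877 in mPFC and 0.0547 in vHipp), the run as a covariate, the mouse as a replicate block, and each run left out. The mouse number pairs the regions because both punches came from the same animal. Mice of a group were otherwise taken as independent.

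Named were Pcdh17 in each comparison, every nonclustered member, the 3 highest members per kilobase and the C-type members of each cluster, the 3 smallest unadjusted p-values of each comparison within a region, the 5 largest region differences in each direction, the 5 highest r, and regulators and partners past the threshold or with the 3 smallest p-values, the latter given only for stress under ketamine in the mPFC. Members, lists and tests were chosen with earlier results of these data known. Ranks in the social hierarchy and behavioural data were not analysed here. The values of 1 regulator and 1 partner that this rule names are not reported here.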

Additional observations from a re-analysis of the deposited data

Results flagged for a closer look

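In 120 groups of values, 9 held a library whose gap to the next exceeded Dixon's 95% critical value, where chance gives about 1 in 20. In the vHipp of ketamine-treated CTRL mice, Pcdh10 was low in mouse 36 (69.9 CPM, next 91.5) and Pcdh20 was low in mouse 23 (138.7 CPM, next 161). Pcdh18 was high in the vHipp of mouse 11 (6.85 CPM, next 3.63), the ketamine-treated CSDS library with the high astrocyte markers, and Pcdh20 was high in the mPFC of the same mouse (33.9 CPM, next 23.4). Pcdh8 was high in the mPFC of mouse 23 (97.98 CPM, next 80.7) among ketamine-treated CTRL mice. Pcdh9 was low in the vHipp of mouse 24 (68.1 CPM, next 95.4), a saline-treated CTRL mouse whose summed beta genes were also the lowest of its mPFC group (120.2 CPM). Pcdh12 was high in the mPFC of mouse 9 among saline-treated CSDS mice (1.34 CPM, next 0.881). The summed gamma genes were high in the mPFC of mouse 21 among ketamine-treated CTRL mice (404 CPM, next 345).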

How the results depend on the processing

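With the long-transcript score as a covariate, 3 rather than 0 passed for stress under ketamine in the mPFC (0.473% of all genes). That score was centred within groups and chosen after seeing the data. Its p-values can come out too small, and no conclusion is drawn from these calls. In the relation between regions, 8 rather than 24 passed without mouse 1 (11.6%, against 15.4% of all genes), 1 with that score removed (1.45% against 9.39%), 31 without mice 9 and 11 (44.9% against 17.9%) and 29 with the run of 4 mice removed (against 17.3% of all genes). The cause was not tested. With the mouse as a replicate block, 51 rather than 44 passed between the regions (49.0% of all genes) and 34 rather than 28 in saline-treated CTRL mice (31.3% of all genes), 27 of them shared, with Pcdha4 lost. With each run of 4 mice left out, 39 to 44 passed between the regions (46.7 to 48.5% of all genes) and 20 to 29 in saline-treated CTRL mice (24.3 to 30.1%). Of 818 values of named members under alternatives, 13 changed sign, none of them past the threshold. The counts at an unadjusted p under 0.05 within a region moved by over 1.5 times with some single run left out in each of the 14 comparisons. Low genes such as Pcdha4 and Pcdh12 are limited by depth.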
